A study of Mus musculus with 8 samples.

Results

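The genes described here are the 10 that make up the core of the retinoblastoma (Rb) pathway and its G1 brakes: the pocket proteins Rb1, Rbl1 and Rbl2, the transcription factor E2f1, the cyclins Ccnd1 and Ccne1, and the cyclin-dependent kinase inhibitors Cdkn2a, Cdkn2b, Cdkn2c and Cdkn1b. They were chosen by name from the 21924 protein-coding genes of GENCODE release M21, and every accessible region in the gene body and 20 kb on each side of it was taken (mouse build mm10). The assay was ATAC-seq, which uses a transposase to insert sequencing adapters into open DNA, and the deposited data are lists of peaks, the stretches where the tagged fragments are dense. There were 8 libraries of the SN4741 line, 4 from cells kept at 37°C in 10% fetal bovine serum and 4 from cells held for 48 h at 39°C in 0.5% serum, each made from 50000 cells with 12 cycles of amplification. The 8 libraries are of the same line, labelled WT and neural precursor cells, and no control line without the transgene was analysed here. SN4741 is a mouse line from embryonic substantia nigra, said to be clonal, that carries, under a tyrosine hydroxylase promoter, the temperature-sensitive tsA58 form of the SV40 large T antigen, active at the lower temperature and unstable at the higher. The study's karyotyping describes the line as polyploid and unstable, with chromosomes that differed from cell to cell, so the number of copies of each locus in these cells is open. Temperature and serum changed together and cannot be told apart. Nothing in the labels says that the libraries of a temperature came from separate cultures, so the tests measure the spread between these libraries, which may be technical.

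As background, pocket proteins hold E2F transcription factors in check during early G1. D-type cyclins with Cdk4 or Cdk6, and then cyclin E with Cdk2, phosphorylate the pocket proteins and release E2F, which turns on genes for DNA replication. The INK4 inhibitors (the Ink4a product of Cdkn2a, and Cdkn2b and Cdkn2c) block the cyclin D kinases, Cdkn1b (p27) blocks cyclin E and Cdk2, and the Arf product of Cdkn2a stabilises p53. Large T antigen binds the pocket proteins and p53, which makes these genes of interest in a line whose T antigen is described as less active at the higher temperature.

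The libraries differed in depth, with 49.8 to 169.2 M fragments (M for mega) kept by the peak caller. The 2 deep libraries, replicates 1 and 4 at 37°C, had 169.2 and 158.1 M, and the others had 49.8 to 71.2 M. The lists held 54845 to 92013 peaks. Of the markers checked, 5 of 6 neural precursor genes and 5 of 8 midbrain dopaminergic genes had a promoter peak in all 8 libraries, with Lmx1a called in 1 library, Slc6a3 in 4 at 37°C and 1 at 39°C, and Lmx1b in 4 and 2. Of 4 markers of other cells, Ptprc (blood) and Alb (liver) had none, while Pecam1 (endothelium) and Epcam (epithelium) had one in all 4 libraries at 37°C and 3 at 39°C. A promoter peak is not expression, and the labelled cell type was checked no further.

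The regulatory sequences are given first, since E2F binds the promoters of several of these genes. Each promoter was searched from 250 bp before to 50 bp after the start on both strands for the E2F forms TTTCGCGC, TTTGGCGC, TTTCCCGC and TTTGCCGC, all set after the data were seen. Of the 11 promoters of the 10 genes (Cdkn2a has separate starts for Ink4a and Arf), 4 held a match: Rb1, Rbl1, E2f1 and the Arf start of Cdkn2a. Among all protein-coding genes 2.85% of 21826 windows of the same length held a match, and among those with a promoter peak in all 8 libraries 4.11% of 13068. A match in these letters is a description of the sequence and not evidence of binding. The windows below are read from the mm10 reference on the gene's strand, with E2F matches in capitals. For Rbl1 (chr2:157204513-157204762, minus strand) and Arf (chr4:89294654-89294903, minus strand) they are the 250 bases before the start, where the match begins 40 and 65 bases before it. For Rb1 (chr14:73325802-73325831, minus strand) and E2f1 (chr2:154569864-154569893, minus strand) the matches lie just past the start, and 30 bases are shown.
Rbl1 promoter: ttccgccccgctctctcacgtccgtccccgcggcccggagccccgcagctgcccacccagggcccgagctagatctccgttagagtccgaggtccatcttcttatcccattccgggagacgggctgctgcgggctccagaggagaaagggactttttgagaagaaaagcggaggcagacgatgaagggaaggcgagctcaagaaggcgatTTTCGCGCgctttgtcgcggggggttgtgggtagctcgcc
Cdkn2a Arf promoter: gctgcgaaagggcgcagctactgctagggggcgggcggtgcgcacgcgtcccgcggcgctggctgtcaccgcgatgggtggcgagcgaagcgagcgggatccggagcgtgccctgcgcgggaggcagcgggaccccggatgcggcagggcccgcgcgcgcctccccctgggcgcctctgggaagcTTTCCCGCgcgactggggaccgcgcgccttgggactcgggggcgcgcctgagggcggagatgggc
Rb1 start: ggaagtgacgtTTTCCCGCggttggcccgg
E2f1 start: ctttcGCGGCAAAaaggaTTTGGCGCgtaa

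Merging peaks that shared at least 1 bp across the 8 lists gave 98066 regions, and 62 of them lay in the windows of the 10 genes. Of the 62, 12 were at a start of a member, 15 were within 1 kb of a start of another gene in the window, and 35 were distal. By the place of the summit (the highest point), 28 were in introns, 12 in exons and 22 between genes. All 8 libraries called 35 of the 62 regions, including the 12 at starts of members, 9 of the 15 at other genes and 14 of the 35 distal ones. The windows hold unequal numbers, from 3 regions for Cdkn2c to 10 each for Rb1, Rbl1 and Cdkn2a. The windows of Cdkn2a and Cdkn2b overlap, and the 4 regions in both were counted once. At the edges, a downstream region of Ccne1 and another of Rbl1 run past their windows, while the nearest region left out lay 221 bp beyond the window of Cdkn1b, was called in all 8 libraries and had a mean percentile of 32.4 in the lists.

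All 10 genes had a promoter peak, within 1 kb of an annotated start, in each of the 8 libraries. Among protein-coding genes 59.9% did. Promoters were compared by the within-list percentile, the share of a library's own peaks that had a lower −log10 q. Since the caller used 1 background per library, this rank is the rank by pileup. E2f1 stood highest, between 99.2 and 99.7 in the 8 libraries, and Ccnd1 lowest, between 76.3 and 87.5. The means over libraries were 99.5 for E2f1, 96.5 for Cdkn1b, 95.9 for both Cdkn2b and Rbl2, 94.3 for Arf, 93.9 for Rb1, 91.6 for Ccne1, 91.4 for Cdkn2c, 88.3 for Rbl1, 86.5 for Ink4a and 83.3 for Ccnd1. The median over the 13107 genes whose promoter region was called in all 8 libraries was 90.03, with quartiles at 81.1 and 95.5. In that order, E2f1 was above Cdkn1b in 8 of 8 libraries by 2.96 ± 0.508 points (SD), and Ink4a above Ccnd1 in 8 of 8 by 3.21 ± 1.41. Over the 8 libraries the mean differences between Cdkn2b and Rbl2, Arf and Rb1, and Ccne1 and Cdkn2c were 0.0182, 0.472 and 0.182 points against SDs of 0.859, 2.20 and 1.20, but their order differed by temperature. At 37°C the first of each pair was higher in 4 of 4 libraries, by 0.69, 2.44 and 1.05 points on average. At 39°C Arf was below Rb1 in 4 of 4 libraries (mean difference -1.49), while Cdkn2b stayed above Rbl2 in 1 of 4 (-0.66) and Ccne1 above Cdkn2c in 1 of 4 (-0.68). This change of order was not tested.

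For temperature, a scale was needed that does not move with the length of a list, since lists at 39°C were shorter. The common-region percentile is the rank of a region among the 44861 regions that all 8 libraries called, and it was compared with limma across all of these, with Benjamini-Hochberg adjustment over them. Of the 35 member regions tested, 3 were lower at 39°C and 9 higher at an adjusted p under 0.05. Regions not called in all 8 libraries, most of them missing more often at 39°C, could not enter this test. The background was 22.1% lower and 20.0% higher, so the share of members that were lower, 8.57%, was below it, and the share that were higher, 25.7%, was near it. The median difference was 0.28 points for members and -0.15 for all regions. Of the 11 promoters, 2 were lower and 3 higher, against 16.1% lower and 10.6% higher of 12682 regions at protein-coding starts. On the within-list percentile the split of the 35 was 18 lower (51.4%) and 1 higher (2.86%), against 62.2% and 1.48% of all regions, with median differences of -2.52 points for members and -6.84 for all regions.

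**Figure D1:**
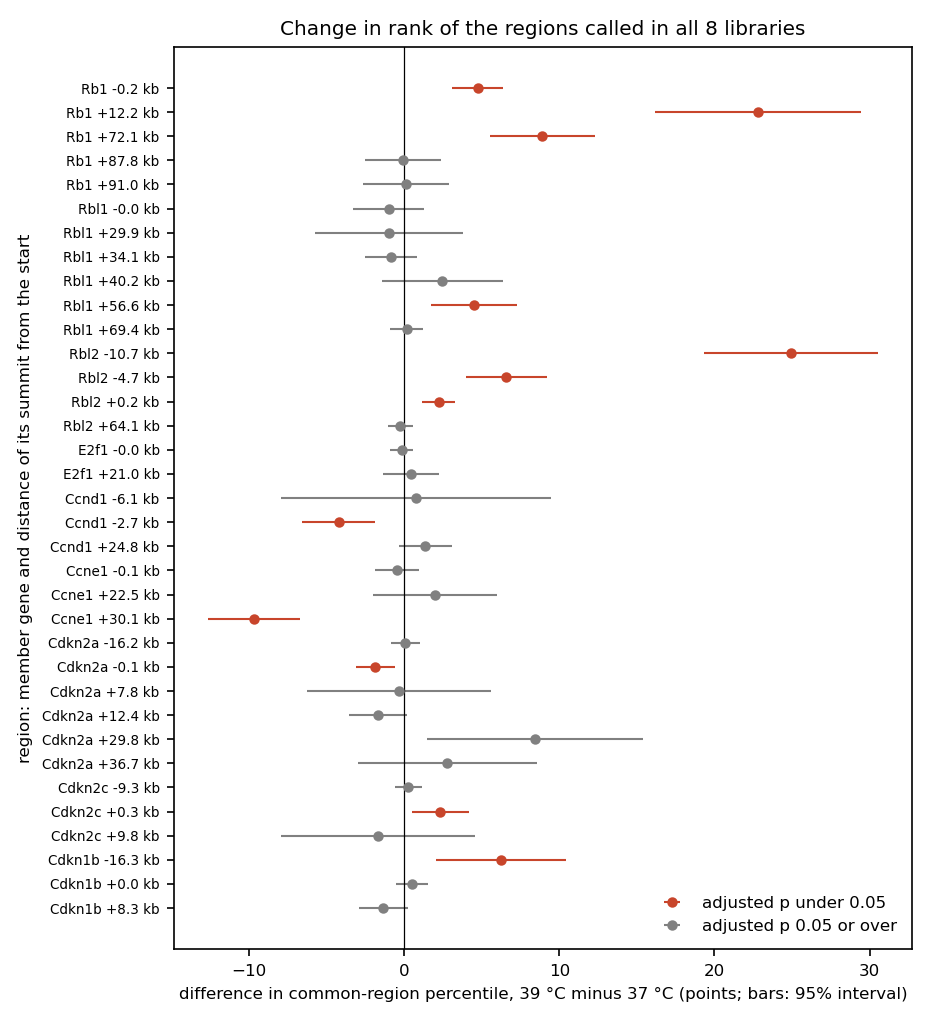
Difference between temperatures in the common-region percentile (points, x axis) for the 35 regions called in all 8 libraries, listed by gene and by kb of the summit from the start. Bars are 95% intervals from limma and red marks an adjusted p under 0.05. The largest rises are the Rbl2 region at -10.7 kb and the Rb1 region at +12.2 kb, and the largest fall is the Ccne1 region at +30.1 kb.

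In the windows of the pocket protein genes, 7 of the 15 regions tested ranked higher at 39°C (46.7%, against 20.0% of all regions): 3 of 5 for Rb1, 3 of 4 for Rbl2 and 1 of 6 for Rbl1. These genes were grouped with the values known, and the count depends on the scale. On the within-list percentile 1 of the 7, the Rb1 promoter, passed the test (adjusted p = 0.0255) and 3 changed sign. Rb1 encodes the founding pocket protein (chr14:73183673-73325822, minus strand). The Rb1 promoter had common-region percentiles of 86.1, 89.0, 89.2 and 86.4 in replicates 1 to 4 at 37°C, and 93.0, 91.9, 92.3 and 92.5 at 39°C. Every library at 39°C was above every one at 37°C, with means of 87.6 ± 1.64 and 92.4 ± 0.446 (SD, n = 4 each) and a difference of 4.74 points (SE 0.749, limma adjusted p = 0.000403). The same promoter also ranked higher at 39°C within whole lists, by 1.33 points, and its width did not pass the test (log2 difference -0.05, adjusted p = 0.652). The summit stayed 152 to 158 bp before the start in all 8 libraries.

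Inside Rb1, a region in an intron 12.2 kb past the start (chr14:73312923-73314234) was at 12.3, 23.3, 18.7 and 24.6 at 37°C and at 37.9, 44.1, 47.2 and 41.1 at 39°C. The groups did not overlap, and the difference was 22.8 points (SE 3.02, limma adjusted p = 0.000119). On the within-list percentile the groups overlapped, at 45.6 to 61.8 and 48.9 to 63.8, and the difference of 4.74 points did not pass the test (adjusted p = 0.345). The highest-ranked distal region of Rb1, 72.1 kb past the start in an intron (chr14:73252821-73254592), was at 56.0 to 61.7 at 37°C and 64.5 to 69.99 at 39°C. That is a difference of 8.90 points (SE 1.55, limma adjusted p = 0.000777), which turned to -0.23 within whole lists (adjusted p = 0.932). The region at the start of a short Rb1 transcript and the neighbour Lpar6, 87.8 kb in, differed by -0.06 points (adjusted p = 0.972). The only region of all 62 called at 39°C and not at 37°C lay 2.73 kb past the Rb1 start, in replicates 1 and 3, at percentiles of 6.78 and 1.62 of their lists. Both values are near the bottom of the lists.

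Rbl2 encodes the pocket protein p130, the main partner of E2F4 in resting cells (chr8:91070057-91123844, plus strand). A region centred 10.7 kb before the start (chr8:91058883-91060769), between genes and within 1 kb of the annotated gene Gm22428, was at 8.51, 4.72, 12.2 and 11.03 at 37°C and at 31.2, 35.3, 30.4 and 39.3 at 39°C. The difference of 24.9 points (SE 2.57, limma adjusted p = 2.16e-05) had the largest size of the 35. Within whole lists the groups overlapped, at 30.7 to 51.8 and 47.3 to 53.5, and the difference of 9.08 points did not pass the test (adjusted p = 0.103). A second region 4.72 kb before the start (chr8:91064402-91065803), the highest-ranked distal region of the gene, was at 67.4 to 72.7 at 37°C and 75.2 to 77.0 at 39°C, 6.59 points higher (SE 1.19, limma adjusted p = 0.00101), and on the within-list percentile differed by -0.24 points (adjusted p = 0.904).
The Rbl2 promoter was at 92.6, 92.1, 92.8 and 91.9 at 37°C and at 95.3, 94.6, 93.6 and 94.7 at 39°C. Its groups did not overlap and differed by 2.23 points (SE 0.485, limma adjusted p = 0.00326). Within whole lists the groups overlapped, and the difference of 0.35 points did not pass the test (adjusted p = 0.458). It was also the only one of the 35 regions to pass the test as wider. Covered length was 2344, 1844, 2015 and 2454 bp at 37°C and 2857, 3021, 2793 and 2589 bp at 39°C, with no overlap between the groups (log2 difference 0.39, SE 0.106, limma adjusted p = 0.0376). The width call did not hold with the replicate block (adjusted p = 0.0866), without the mean-variance trend (0.0551), or without replicate 1 (0.0577) or 2 (0.0844) at 37°C or replicate 1 (0.0657), 2 (0.0911) or 3 (0.0902) at 39°C. It held relative to the median width change (log2 difference 0.69, adjusted p = 0.000521) and in the 6 libraries under 100 M fragments (0.54, adjusted p = 0.0344). The fourth Rbl2 region, at the start of its neighbour Aktip, ranked between 99.2 and 99.8 in every list and differed by -0.24 points (adjusted p = 0.631).

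Rbl1 encodes p107, whose own gene is a textbook E2F target (chr2:157145893-157204534, minus strand). The promoter that holds the E2F match printed above was at 84.5, 81.6, 81.8 and 81.3 at 37°C and at 82.8, 79.6, 79.7 and 83.2 at 39°C. The groups overlapped, with a difference of -0.99 points (95% interval -3.27 to 1.28, limma adjusted p = 0.477). Its summit was 12 bp before the start in all 8 libraries. The strongest distal region of Rbl1, in an intron 56.6 kb past the start (chr2:157147369-157149090), was at 55.4 to 56.3 at 37°C and 58.9 to 62.6 at 39°C, 4.51 points higher (SE 1.28, limma adjusted p = 0.0141). Within whole lists the sign of that difference turned, to -4.39 points (adjusted p = 0.141), and in the 6 libraries under 100 M fragments the difference of 4.34 points did not pass the test (adjusted p = 0.0676).

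**Figure D2:**
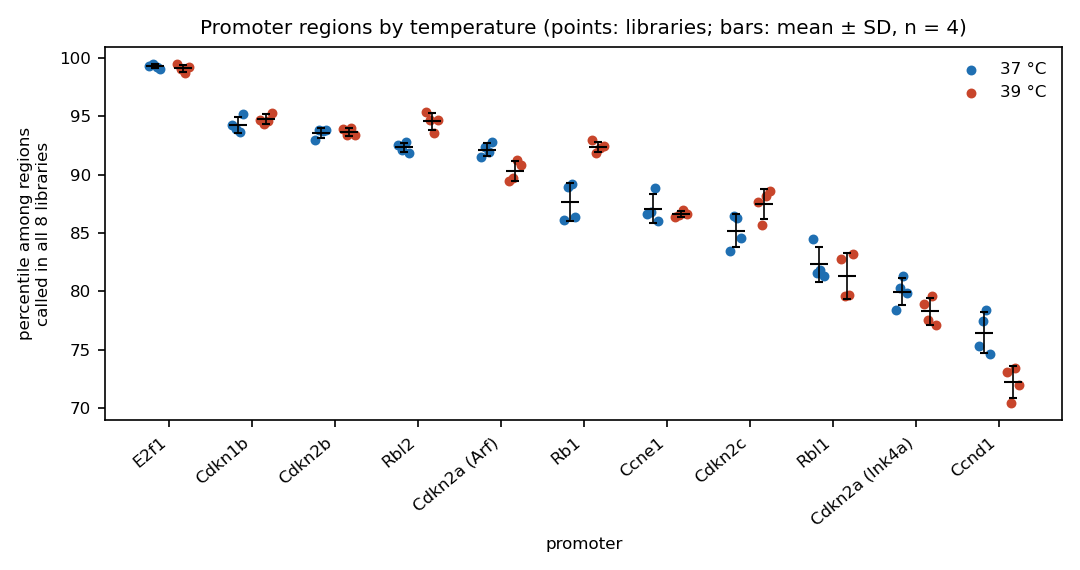
Common-region percentile (y axis, percentile among the 44861 regions called in all 8 libraries) of each member promoter, in blue for 37°C and red for 39°C. Points are libraries and bars are the mean ± SD (n = 4). The groups do not overlap for Rb1 and Rbl2, which are higher at 39°C, or for Arf and Ccnd1, which are lower.

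E2f1 encodes the activator E2F that the pocket proteins restrain (chr2:154559407-154569892, minus strand). Its promoter was at 99.3, 99.4, 99.2 and 99.0 at 37°C and at 99.5, 99.1, 98.7 and 99.2 at 39°C, close to the top of the scale. The groups overlapped, and the difference of -0.15 points (95% interval -0.90 to 0.61, limma adjusted p = 0.765) did not pass the test. The promoter region was narrower at 39°C, with 4231 to 4962 bp covered at 37°C and 3480 to 4119 bp at 39°C (log2 difference -0.31, SE 0.0857, limma adjusted p = 0.0391). Relative to the median width change of each library, that difference was -0.01 (adjusted p = 0.961). Leaving out 1 library at a time, the call held only without replicate 3 at 37°C or 1 at 39°C (adjusted p in the other 6 fits 0.0575 to 0.121). It was also lost with the replicate block (limma adjusted p = 0.0899) and without the mean-variance trend (0.0711).

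Around the E2f1 promoter fewer regions were called at 39°C. The window held 9, 5, 5 and 9 regions at 37°C and 2, 2, 3 and 3 at 39°C, so the groups did not overlap. Of these, 4 were called in the 2 deep libraries alone. Another 2 were restricted to 37°C, that is, called in all 4 libraries at 37°C and in none at 39°C. The first of them (chr2:154554634-154559095) lay past the 3′ end of E2f1 in an intron of the neighbour Necab3 and was at percentiles of 20.4, 24.9, 10.3 and 33.5 of the lists at 37°C. The second (chr2:154560269-154561279), 9.04 kb past the start with its summit in an exon of E2f1 and the highest-ranked distal region of the gene, was at 14.9, 29.8, 21.1 and 33.5. Both are in the lower part of the lists. When each list was cut to its 54845 strongest peaks, the first was called in 0 libraries and the second in 1. The start region shared by Necab3, 1700003F12Rik and Actl10 was called in all 8 libraries and was narrower at 39°C, at 3365 to 6045 bp and 2066 to 2768 bp (log2 difference -1.01, SE 0.175, limma adjusted p = 0.00633, and 0.0618 without replicate 2 at 37°C).

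Ccnd1 encodes cyclin D1, the cyclin that growth factors in serum induce (chr7:144929931-144939925, minus strand). Its promoter region was a broad domain of 16985 bp (chr7:144927210-144944194) that spans the gene. In replicates 1, 2 and 4 at 37°C it was called as 1 unbroken peak, and in replicate 3, the library with the fewest fragments, as 4 peaks. At 39°C it was broken into 3, 3, 5 and 6 peaks. The covered length was 16985, 16916, 15014 and 16803 bp at 37°C and 15431, 15295, 13416 and 11303 bp at 39°C. These groups overlapped, since replicate 3 at 37°C covered less than replicates 1 and 2 at 39°C, and the width did not pass the test (log2 difference -0.25, limma adjusted p = 0.126). The height rank did: 75.3, 77.4, 78.4 and 74.7 at 37°C against 73.1, 70.4, 73.5 and 72.0 at 39°C, a difference of -4.22 points (SE 1.06, limma adjusted p = 0.00766). In none of the 8 libraries did the summit of the region's strongest peak lie within 1 kb of the start. It was 1768 to 3613 bp before the start. In replicate 4 at 39°C a separate, lower peak covered the start, from -785 to 1055 bp. Where the summit, in place of the peak, must lie within 1 kb, Ccnd1 no longer has a promoter call in all 8 libraries.
The strongest distal region of Ccnd1, 6.15 kb before the start (chr7:144945325-144947042), was at 7.76 to 19.02 at 37°C and 6.23 to 26.3 at 39°C, and differed by 0.77 points (adjusted p = 0.899). The window held 5, 5, 4 and 5 regions at 37°C and 3, 4, 3 and 3 at 39°C (difference -1.50, exact permutation test, two-sided, p = 0.0571, adjusted over all genes 0.193).

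Ccne1 encodes cyclin E1, the partner of Cdk2 at the end of G1 and an E2F target (chr7:38097984-38107534, minus strand). Its promoter did not differ in rank beyond the spread, at 86.6, 86.8, 88.8 and 86.0 at 37°C and 86.3, 86.6, 86.9 and 86.7 at 39°C (difference -0.45 points, 95% interval -1.88 to 0.99, limma adjusted p = 0.622). It was narrower, at 1813 to 2206 bp and 1503 to 1626 bp (log2 difference -0.36, SE 0.0918, limma adjusted p = 0.0287), though not relative to the median width change (-0.06, adjusted p = 0.623). The width call held in the leave-one-out fits only without replicate 3 at 37°C or 1 at 39°C (adjusted p in the others 0.0552 to 0.102). It was also lost with the replicate block (limma adjusted p = 0.0782). A region 4.62 kb before the start, between genes (chr7:38111810-38112637), was restricted to 37°C. It was at percentiles of 56.5, 57.1, 55.5 and 58.9 of the 4 lists, in their upper part, and it was called in 4 and 0 libraries also with equal numbers of peaks. A region 30.1 kb past the start (chr7:38076554-38078450), between genes, was called in all 8 libraries and fell from 68.6, 65.5, 67.1 and 67.8 at 37°C to 54.8, 57.7, 57.7 and 60.2 at 39°C. The difference of -9.67 points (SE 1.36, limma adjusted p = 0.000178) was the largest fall of the 35, and the region also narrowed (log2 difference -0.61, SE 0.125, limma adjusted p = 0.0129). Only part of this region lies in the window, which begins at position 38077984, and its median summit, at 38077426, lies outside. The highest-ranked distal region of Ccne1, at 22.5 kb (chr7:38084292-38086282), overlapped between temperatures (difference 2.00 points, adjusted p = 0.411).

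Cdkn1b encodes p27, which accumulates in resting cells (chr6:134920401-134925513, plus strand). Its promoter was at 94.3, 93.9, 93.7 and 95.2 at 37°C and at 94.7, 94.4, 94.6 and 95.3 at 39°C, with a difference of 0.49 points (95% interval -0.53 to 1.51, limma adjusted p = 0.428). Upstream, neighbouring regions differed in their pattern. The region 14.4 kb before the start (chr6:134905567-134906090) was restricted to 37°C, at percentiles of 41.7, 34.95, 36.8 and 45.8 of the lists, and was called in 4 and 0 libraries also with equal numbers of peaks. The region 16.3 kb before it (chr6:134903469-134904941), the strongest distal one of the gene, was called in all 8 and was at 53.2, 46.6, 48.3 and 53.2 at 37°C and 54.1, 59.2, 56.0 and 57.1 at 39°C. It was 6.24 points higher at 39°C (SE 1.91, limma adjusted p = 0.021), but -3.80 points within whole lists (adjusted p = 0.267), and the adjusted p was 0.0626 without replicate 2 at 37°C and 0.0648 without replicate 2 at 39°C. Downstream, the region at the start of the noncoding gene Lockd was narrower at 39°C (log2 difference -0.53, SE 0.141, limma adjusted p = 0.0342), and not relative to the median width change (-0.23, adjusted p = 0.094). Leaving out 1 library at a time, this call also held only without replicate 3 at 37°C or 1 at 39°C (adjusted p in the other 6 fits 0.0687 to 0.103). The window held 7, 6, 5 and 7 regions at 37°C and 4, 4, 4 and 3 at 39°C.

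Sequences around the summits of 4 regions are shown next, as the plus strand of mm10, 100 bp on each side of the median summit. They are the 2 that stayed restricted to 37°C with equal numbers of peaks and the 2 with the largest rises in common-region percentile. The largest fall, the Ccne1 region at +30.1 kb, is not shown. Capitals mark matches on either strand to TEAD (GGAATG), AP-1 (TGACTCA or TGAGTCA) and RUNX (TGTGGT) motifs, chosen after the data were seen. These were found in 16.9%, 24.2% and 24.5% of the 84777 regions called in at least 2 libraries, and the E2F forms, searched too, in 0.823%. The Ccne1 region held 2 TEAD matches and 1 RUNX match, which overlap in part, the Cdkn1b region 1 AP-1 match, the Rbl2 region 1 RUNX match and the Rb1 region none of the 4 motifs.
Ccne1 at -4.6 kb, restricted to 37°C (chr7:38112053-38112253): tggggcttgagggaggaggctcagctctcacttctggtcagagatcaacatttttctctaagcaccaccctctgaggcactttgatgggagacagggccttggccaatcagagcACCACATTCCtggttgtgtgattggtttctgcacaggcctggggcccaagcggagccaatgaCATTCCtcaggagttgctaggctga
Cdkn1b at -14.4 kb, restricted to 37°C (chr6:134905876-134906076): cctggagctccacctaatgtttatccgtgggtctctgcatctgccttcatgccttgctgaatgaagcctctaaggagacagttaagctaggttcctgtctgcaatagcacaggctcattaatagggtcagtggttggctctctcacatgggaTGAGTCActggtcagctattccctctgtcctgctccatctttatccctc
Rbl2 at -10.7 kb, higher at 39°C (chr8:91059248-91059448): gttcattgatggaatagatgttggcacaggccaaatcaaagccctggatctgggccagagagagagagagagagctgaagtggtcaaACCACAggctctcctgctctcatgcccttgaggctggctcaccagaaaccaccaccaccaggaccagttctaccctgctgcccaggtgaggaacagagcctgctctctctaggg
Rb1 at +12.2 kb, higher at 39°C (chr14:73313484-73313684): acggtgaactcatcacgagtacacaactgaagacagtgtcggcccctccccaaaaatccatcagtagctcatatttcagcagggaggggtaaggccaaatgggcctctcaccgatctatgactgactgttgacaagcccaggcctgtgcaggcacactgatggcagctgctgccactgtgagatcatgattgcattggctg

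**Figure D3:**
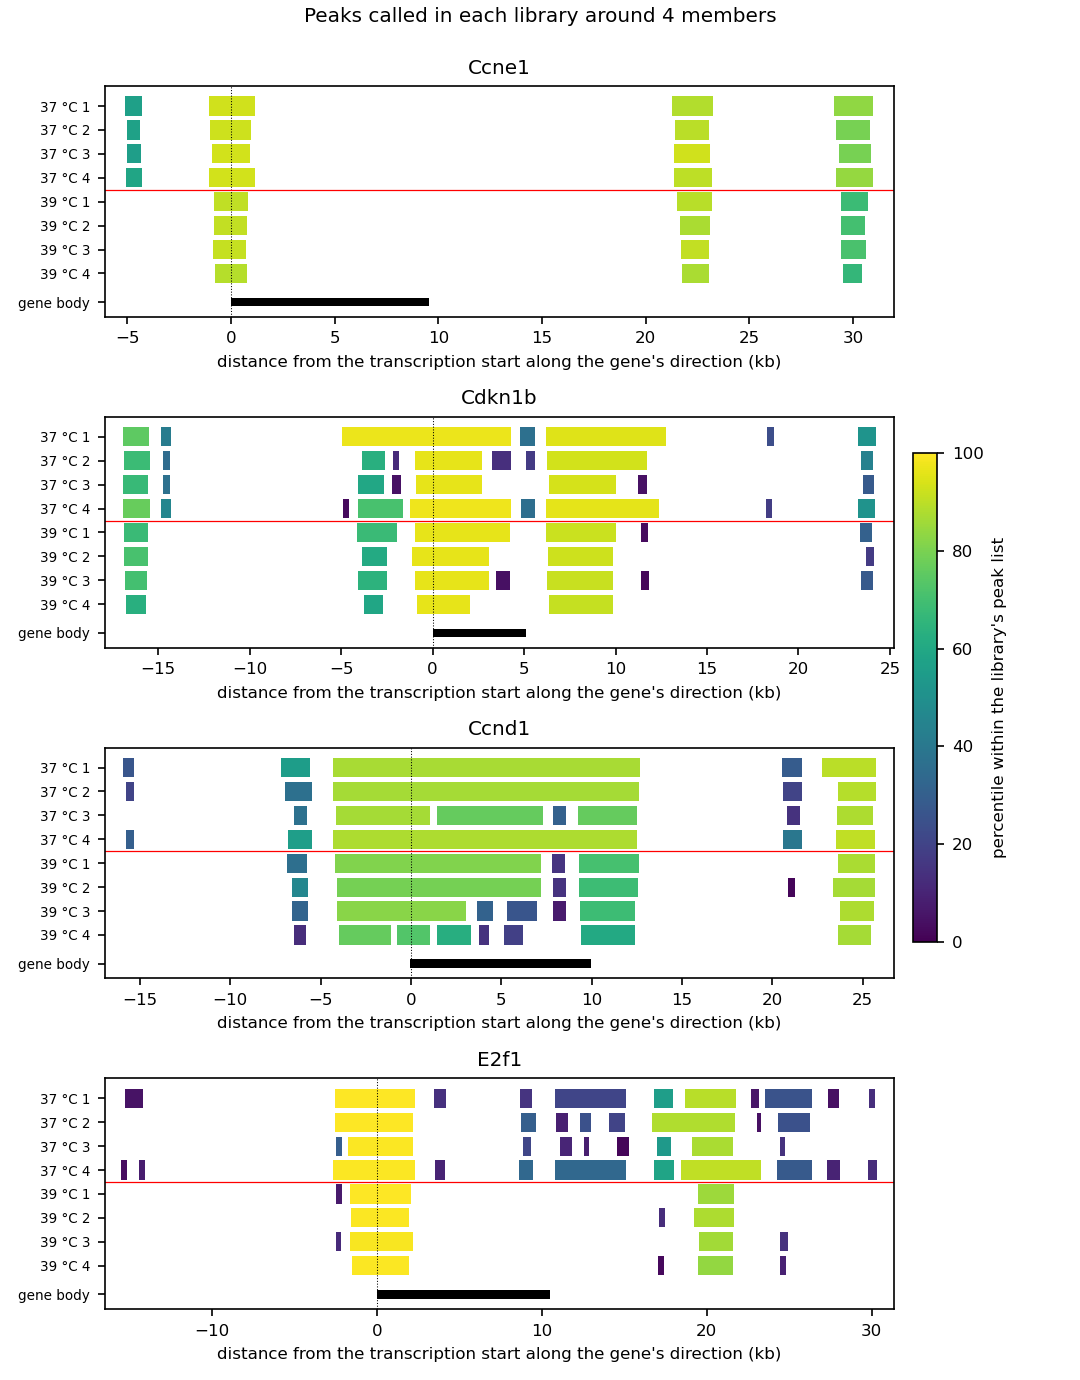
Peaks called in each library around Ccne1, Cdkn1b, Ccnd1 and E2f1, drawn to scale by distance from the start in kb along the direction of the gene. Colour is the percentile within the library's list, the red line separates 37°C from 39°C and the black bar is the gene body. Visible in the 4 libraries at 37°C only are the Ccne1 peak at -4.6 kb and the Cdkn1b peak at -14.4 kb. The Ccnd1 domain is broken into 3 to 6 peaks at 39°C, and into 4 in replicate 3 at 37°C. Regions past E2f1 called at 37°C are also visible.

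Cdkn2a (chr4:89274471-89294653) and Cdkn2b (chr4:89306299-89311039) lie side by side on the minus strand. The Ink4a start was at 78.4, 80.3, 81.3 and 79.9 at 37°C and at 78.9, 77.6, 79.6 and 77.2 at 39°C, with overlap (difference -1.69 points, 95% interval -3.53 to 0.16, limma adjusted p = 0.131). The Arf start was at 91.5, 92.4, 91.9 and 92.8 at 37°C and at 89.4, 89.7, 91.3 and 90.8 at 39°C. Those groups did not overlap and differed by -1.84 points (SE 0.563, limma adjusted p = 0.0205), but on the median-centred log2 fold enrichment the difference was 0.03 (adjusted p = 0.772). The call was also lost without the mean-variance trend (adjusted p = 0.0982) and in the 6 libraries under 100 M fragments (0.0582). Leaving out 1 library ended the call in 4 of 8 cases, with adjusted p = 0.0531 without replicate 2 and 0.066 without replicate 4 at 37°C, and 0.0613 without replicate 1 and 0.06 without replicate 2 at 39°C. The Cdkn2b start, which encodes p15, was at 93.0, 93.8, 93.8 and 93.9 at 37°C and 94.0, 93.4, 94.0 and 93.4 at 39°C (difference 0.09 points, 95% interval -0.85 to 1.03, limma adjusted p = 0.895). The strongest distal region of Cdkn2a, 36.7 kb past the Arf start in Gm12606 (chr4:89257359-89258640), differed by 2.78 points (adjusted p = 0.429), and that of Cdkn2b, in a Cdkn2a intron (chr4:89286324-89287362), by -0.34 points (adjusted p = 0.935).
Cdkn2c, which encodes p18 (chr4:109660876-109667189, minus strand), had 3 regions, all at starts and all called in 8 libraries, and no distal region. Its promoter was at 83.5, 86.5, 86.3 and 84.5 at 37°C and at 87.7, 85.7, 88.2 and 88.6 at 39°C. The groups overlapped, and the difference of 2.33 points (SE 0.845) was near the threshold (limma adjusted p = 0.0439). It turned to -0.77 points within whole lists (adjusted p = 0.3), and leaving out replicate 1 or 4 at 37°C or replicate 1, 3 or 4 at 39°C raised the adjusted p to between 0.0879 and 0.111. The call was also lost with the replicate block (adjusted p = 0.0635), without the mean-variance trend (0.115) and in the 6 libraries under 100 M fragments (0.324).

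Across the windows, 4 of the 59 regions called in at least 2 libraries were restricted to 37°C (6.78%) and 0 to 39°C. Over the windows of all protein-coding genes 6.42% were restricted to 37°C and 0.232% to 39°C, so the members were near the background. Such a pattern has an exact permutation p of 0.029 at best, which could not pass an adjustment over all regions, and it is given as a description. Each library called 59, 50, 47 and 58 of the 62 regions at 37°C and 44, 41, 44 and 37 at 39°C. The groups did not overlap, with means of 53.5 ± 5.92 and 41.5 ± 3.32 (SD, n = 4 each). With the same number of peaks from each list the difference of -12.0 became -1.25. Distal regions made up most of it, with 32, 23, 22 and 31 called at 37°C and 20, 18, 20 and 15 at 39°C, while the 12 regions at member starts were called throughout. The 2 deep libraries alone called 9 regions, all distal. Without these libraries the difference over the same 62 regions was -7.0, an alternative added after the data were seen, and with peaks merged afresh from the other 6 lists it was -10.2. The part of depth and list length in this difference was not tested further.

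**Figure D4:**
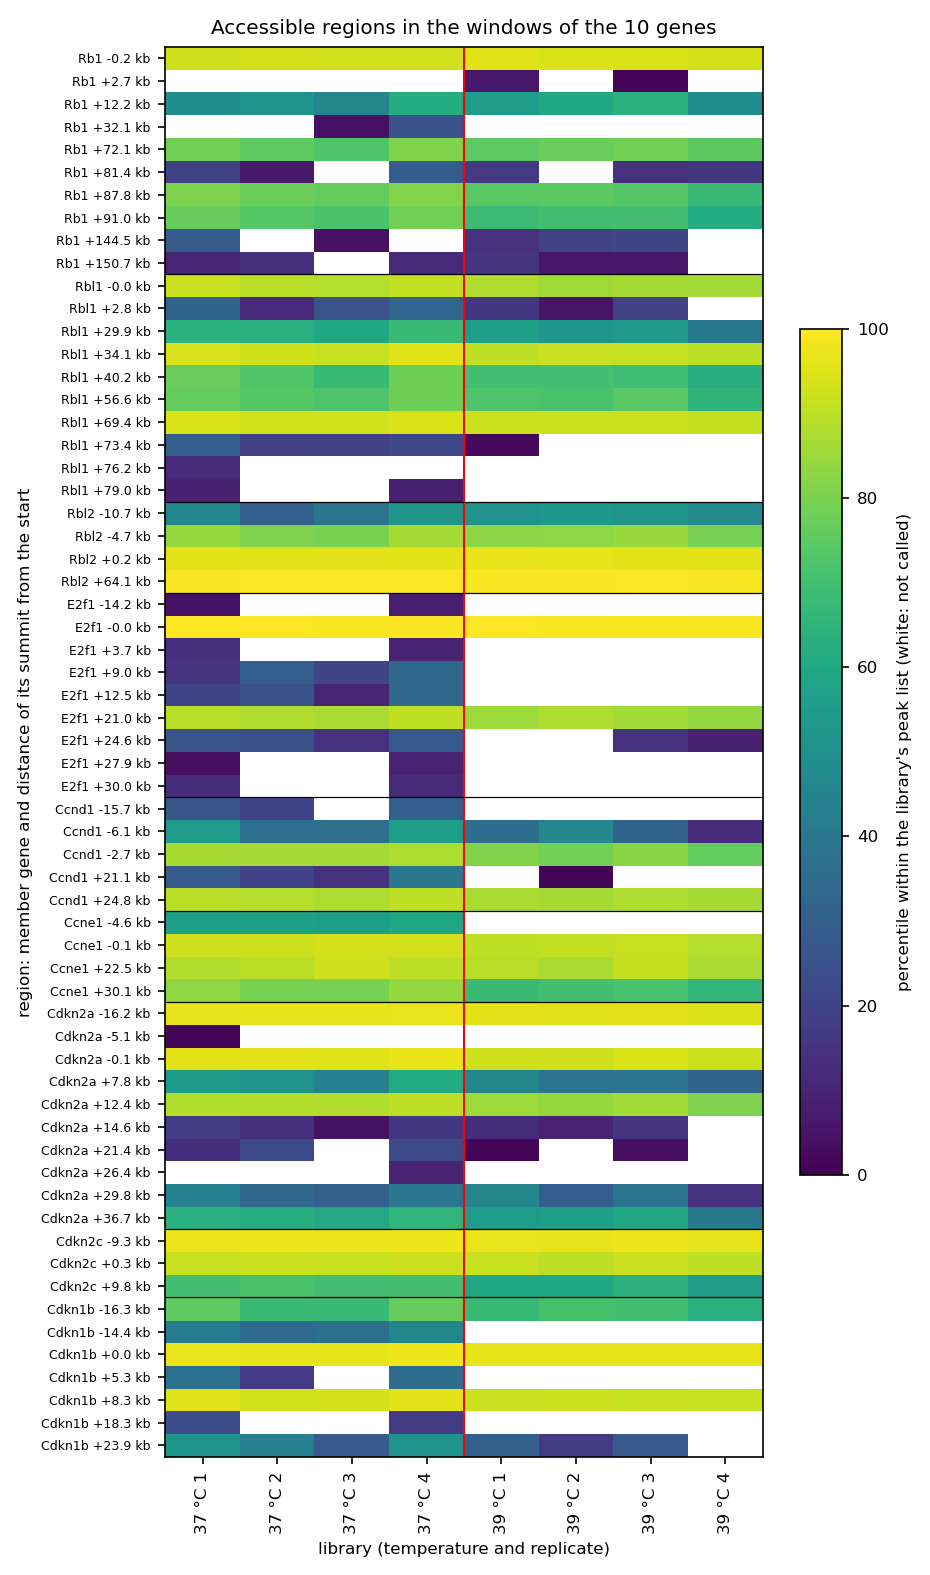
The 62 regions in the windows of the 10 genes (rows, by gene and distance of the summit from the start in kb) in the 8 libraries (columns). Colour is the percentile of the region within the library's own peak list and white means not called. Rows at member starts are filled in all 8 libraries, and most gaps are at 39°C, where 37 to 44 regions were called against 47 to 59 at 37°C.

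Gene by gene, the number of regions was higher in every library at 37°C than in any at 39°C for 3 of the 10 genes: E2f1 (7 against 2.5 on average), Cdkn1b (6.25 against 3.75) and Ccne1 (4 against 3). With equal numbers of peaks the differences were 0, -1.5 and -1.0 regions, so that of E2f1 was lost, and Rb1 then had 1.0 more region at 39°C with no overlap between the groups (exact permutation p = 0.029, 0.261 adjusted over all genes). On the lists as deposited, non-overlap with more regions at 37°C was found for 26.2% of the 18313 genes with a region, and the opposite, true of 0 members, for 0.202%. With equal numbers of peaks these shares were not computed. For each of the 3 genes the exact permutation p was 0.029, two-sided, the smallest this design allows, and 0.108 adjusted over all genes, so none passed. Rb1, Rbl2 and Cdkn2c had differences of 0.25, 0 and 0 regions on those lists. For width, 5 of the 35 regions were narrower at 39°C and 1 wider, against a background of 16.4% narrower and 0.399% wider. The median log2 difference was -0.22 for members and -0.24 for all regions, and relative to the median change the split was 3 and 3 (8.57% each), against 10.4% narrower and 10.7% wider of all regions.

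Of 31 other genes of the pathway, listed for their roles, all had a promoter peak in the 8 libraries, and their strongest promoter region was lower at 39°C for 7 (22.6%) and higher for 1 (3.23%), against 16.1% and 10.6% of regions at protein-coding starts. Lower were E2f2 (difference -6.37 points, limma adjusted p = 0.00158) and E2f7 (-2.67, 0.00326 by the same test), E2F family members, the cyclin genes Ccna2 (-2.04, 0.00122) and Ccnd3 (-1.83, 0.0347), the kinase gene Cdk2 (-1.88, 0.0335), the inhibitor gene Cdkn1c (-14.4, 0.00213) and the cell cycle transcription factor gene Mybl2 (-6.10, 0.000186). Higher was Cdkn1a, which encodes p21, with means ± SD over 4 libraries of 92.1 ± 0.262 at the lower and 94.1 ± 0.927 at the higher temperature (difference 1.92 points, limma adjusted p = 0.0114). On the median-centred log2 fold enrichment 3 were lower (E2f2, Cdkn1c and Mybl2) and 4 higher (E2f5, Cdkn1a, Lin37 and Lin52), where 19.6% of all regions were lower and 26.9% higher. Within whole lists 24 were lower and 0 higher, where 62.2% of all regions were lower and 1.48% higher. On these scales the shares among regions at protein-coding starts alone were not computed. The Cdkn1a call was lost without the mean-variance trend (adjusted p = 0.079) and in the 6 libraries under 100 M fragments (0.0508). Cdk2 and Ccnd3 also missed the threshold without the trend (0.126 and 0.124), and Cdk2 in the 6 libraries (0.125). Leaving out 1 library ended the call for Cdk2 without replicate 1 or 3 at 37°C or 2 or 3 at 39°C (0.0527 to 0.0897), and for Ccnd3 without replicate 2 or 3 at 37°C or any 1 of the 4 at 39°C (0.0638 to 0.104). Of the 224 regions in their windows called in at least 2 libraries, 15 (6.70%) were restricted to 37°C and 1 (0.446%), in the window of Fbxw7, to 39°C, against 6.42% and 0.232% over the windows of all protein-coding genes.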

How the data were processed

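The authors aligned paired ATAC-seq reads to mm10 with Bowtie2 2.4.1 in local mode, removed duplicates with Picard 2.26.11 and called peaks for each library with MACS3 3.0.0a7 at a q-value of 0.05, with no control library and no local background. SAMtools 1.15.1 and bedtools 2.30.0 are also in the submitters' processing notes. The deposited lists give the pileup signal of each peak in fragments, its fold enrichment (a ratio of pileup to background) and a −log10 score for the p-value and for the q-value, and the authors did not scale them for depth. No more than 1 fragment per position entered a pileup, per the file headers. The methods also describe taking out peaks in regions prone to artefacts, but in all 8 lists the peaks are numbered with 0 numbers missing, so nothing in the lists shows that step. They were used as deposited.

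From these lists, peaks were merged at 1 bp of overlap and placed with GENCODE M21. Windows were gene bodies plus 20 kb, promoters within 1 kb of a start, and a region's value was its highest −log10 q in a library. Rank and log2 width were compared with limma 3.58.1 (R 4.3.3) with a mean-variance trend across 44861 regions, and region counts per gene by the exact permutation test over 70 assignments. The limma test of the common-region percentile was first tried on simulated data with known shifts, placed in regions of middle rank. That trial did not cover the width test or the region counts. The 2 groups were taken from the sample titles. Named regions were those restricted to a temperature, those past an adjusted p of 0.05 and the strongest distal region of each gene. The members, lists, motifs and tests were chosen with earlier results of these data known. No counts per region were used, so the depth behind a single value is known only as fragments per library, 49.8 to 169.2 M (mega). Sequences are from the GRCm38.p6 assembly, which is mm10.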

Additional observations from a re-analysis of the deposited data

Results flagged for a closer look

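In groups of 4 libraries, 1 library stood apart from the other 3 in 8 of 66 groups examined, by Dixon's test at the 95% level, which chance gives in about 1 in 20 groups. Of these, 4 are counts of regions, where a gap of 1 region is enough: Ccnd1 with 4 regions in replicate 3 at 37°C against 5 in the others and with 4 in replicate 2 at 39°C against 3, Cdkn2b with 4 in replicate 1 at 37°C against 3, and Cdkn1b with 3 in replicate 4 at 39°C against 4. The Ccnd1 promoter region covered 15014 bp in replicate 3 at 37°C, where the next library covered 16803 bp. The Ccne1 promoter region covered 1503 bp in replicate 4 at 39°C, the library with the fewest peaks, and at least 1610 bp in the others. The common-region percentile of the Rbl1 promoter was 84.5 in replicate 1 at 37°C, against 81.8 in the nearest library, and that of the Cdkn2b promoter was 93.0 in the same library, against 93.8. Both of these differences are small beside the range of the scale.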

How the results depend on the processing

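Depth and list length limit what these lists can show about weak regions: a region not called at 39°C is not shown to be closed. With equal numbers of peaks the difference in regions per library was -1.25 and the regions restricted to 37°C numbered 2. In that setting 1 gene, Rb1, had more regions in every library at 39°C than in any at 37°C. With only peaks of −log10 q of at least 5, 5 genes had more regions in every library at 37°C than in any at 39°C (exact permutation test, adjusted p = 0.144 for each). Over the same regions in the 6 libraries under 100 M fragments, added after the data were seen, the difference in regions per library was -7.0. With flanks of 5 kb it was -5.00, and with 50 kb it was -24.0 with 10 restricted regions. The shares of all regions restricted to a temperature, and of all genes without overlap, were computed only for the lists as deposited with flanks of 20 kb. Counts of such regions and genes under the other settings therefore stand without a background. Within whole lists 18 regions were lower and 1 higher at 39°C (62.2% and 1.48% of all regions), and the sign turned for Rb1 at +72.1 kb (-0.23 points), Rbl1 at +56.6 kb (-4.39), Cdkn2c (-0.77), Cdkn1b at -16.3 kb (-3.80) and Rbl2 at -4.7 kb (-0.24), and for Arf on the median-centred log2 fold enrichment (0.03). The replicate numbers did not pair the libraries (correlations of same-numbered deviations from -0.0855 to 0.108). With the replicate block, 3 regions were lower and 9 higher in rank, and the promoter of Cdkn2c missed the threshold (adjusted p = 0.0635). In that fit 3 regions were narrower and 0 wider (the Rbl2, E2f1 and Ccne1 promoters missed the threshold). The difference in regions per library was -12.0. Width calls were 3 narrower and 0 wider without the mean-variance trend, 3 and 3 after centring, and 0 and 1 in the 6 libraries under 100 M fragments, where 14.9%, 10.4% and 2.01% of all regions were narrower. Leaving out each library gave 1 to 10 narrower regions (6.56 to 28.2% of all regions) and 0 to 1 wider. The 10 came without replicate 3 and the 1 without replicate 2 at 37°C, and without replicates 1 or 4 at 37°C or 2, 3 or 4 at 39°C there were 2. The difference in regions per library ranged from -14.2 to -10.5, and restricted regions from 4 to 6, with 6 without replicate 3 at 37°C. Of 192 repeats for the 12 regions called in rank, 166 kept the direction and the call, 20 the direction only and 6 turned. Causes were not tested.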
